A study of Homo sapiens with 6 samples.

Results

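The genes described here belong to the unfolded protein response and the integrated stress response, and their transcripts were measured in SUM149, an established line of human inflammatory breast cancer cells. They were a list of 40 genes given by name. Each was represented by the probe set with the highest mean among those the HG-U133 Plus annotation ties to 1 gene symbol. By this rule 39 of the 40 were measured, among 19775 genes tested in all. SYVN1, a ubiquitin ligase of the endoplasmic reticulum (ER), had no such probe set and was not analysed here. For this description the 39 were sorted into 21 ATF4-type genes and 18 XBP1/ATF6-type genes. The 3 sensors of ER stress were put in the second class, among them PERK (EIF2AK3), which acts on ATF4.

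In the siTIG1 group, 3 arrays, cells had received an ON-TARGET Plus siRNA pool against TIG1, whose current symbol is RARRES1. In the siControl group, 3 arrays, cells had received a non-targeting pool of the siGENOME line, so the groups differ in the kind of pool as well as in its target. Both pools were transfected with oligofectamine at 200 nmol/L, and both groups grew in Ham's F-12 medium with 5% serum, insulin and hydrocortisone. Whether each replicate was a culture of its own is not given by the labels, and the p-values rest on a spread between arrays that may be purely technical. All levels below are log2 signals, and all differences are log2 siTIG1 minus siControl unless named otherwise.

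When unfolded proteins load the ER, the membrane sensors IRE1 (ERN1), PERK (EIF2AK3) and ATF6 are activated. IRE1 splices the mRNA of XBP1, and spliced XBP1 and cleaved ATF6 induce chaperones, folding enzymes and degradation factors of the ER. PERK, like the kinases that sense amino acid shortage or double-stranded RNA, phosphorylates the initiation factor eIF2. General translation then falls while the transcription factor ATF4 is made, and ATF4 induces genes of amino acid synthesis and uptake, one-carbon metabolism and feedback on the pathway. The array measures total XBP1 and ATF4 mRNA, and neither splicing nor translation.

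Of the 6 arrays, that of siControl replicate 3 was unlike the others, which bears on each result below. It correlated at 0.985 with both other controls over all probe sets, whereas siControl replicates 1 and 2 correlated at 0.998 and the siTIG1 arrays correlated with those 2 at 0.992 to 0.993. TIG1 itself read 10.72, 10.03 and 9.96 on the siTIG1 arrays and 11.04, 10.92 and 12.58 on the siControl arrays of replicates 1 to 3 on its first probe set. On its brightest probe set siTIG1 replicate 1 read 12.69, above siControl replicates 1 and 2 at 12.65 and 12.61, so a lower TIG1 level on that array is not shown by every probe set. siControl replicate 3 was the highest array on all 3 probe sets. All 33 measured S phase genes were lower on siControl replicate 3 than the mean of replicates 1 and 2, by a median of -1.32. The 3' minus 5' signal of the ACTB control probe sets, which grows as RNA degrades, was 2.14 to 2.34 on the siTIG1 arrays and 2.73, 2.62 and 3.21 on the siControl arrays. The same measure of GAPDH was 0.46 to 0.47 on the siTIG1 arrays and 0.48, 0.46 and 0.57 on the siControl arrays. The part of these differences in the results below was not tested. The epithelial markers EPCAM, CDH1, KRT8, KRT18 and KRT19 averaged 12.31 to 14.36 over the 6 arrays, and the leukocyte, endothelial and fibroblast markers 5.78 to 10.09, with no call that tells these from background.

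The promoters of both classes are shown first, searched for elements bound by the factors that the classes are named for. Many windows held none of these elements, as the counts below show. The ER stress response element (ERSE), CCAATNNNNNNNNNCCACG, is bound by NF-Y with ATF6 or XBP1, and ERSE-II, ATTGGNCCACG, is a compact variant. The C/EBP-ATF response element (CARE), searched as TGATGNAA, is bound by ATF4 with C/EBP partners. The UPR element (UPRE), searched as TGACGTGG, is bound by XBP1 and ATF6. Each motif was searched on both strands in the RefSeq windows of 300 bases around each listed start (GRCh38.p14), and no 2 matches overlapped in the members. Of the 39 members 35 had a window, 17 of the ATF4 type and 18 of the XBP1/ATF6 type.

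An ERSE was found in 7 of the 18 XBP1/ATF6-type genes (38.9%) and in 0 of 17 ATF4-type genes, against 25 of all 27305 genes in the table (0.0916%). ERSE-II was found in SDF2L1 and HERPUD1, 2 of 18 (11.1%), and in no ATF4-type gene, against 0.0696% of all genes. CARE was found in ASNS, CEBPG and CHAC1, 3 of 17 ATF4-type genes (17.6%), and in HERPUD1, 1 of 18 XBP1/ATF6-type genes (5.56%), against 4.46% of all genes. UPRE was in no member and in 0.927% of all genes. These are matches of letters in a short window and not measured sites. The classes are named for factors that bind these elements, so the shares are no test of the split into classes. The count over all genes includes the members. The ERSE matches are given below in the orientation of the motif, with the fixed letters in capitals, to show how far the spacers differ.

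XBP1: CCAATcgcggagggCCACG
HSPA5: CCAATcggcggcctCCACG
HSP90B1, first match: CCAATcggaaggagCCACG
HSP90B1, second match: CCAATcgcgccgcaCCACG
CALR: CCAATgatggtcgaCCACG
CANX: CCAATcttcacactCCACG
PDIA6: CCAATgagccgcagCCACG
CRELD2: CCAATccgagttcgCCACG

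Of 4 genes the whole window is printed, on the strand of the gene with the matches in capitals, since the results below turn on them. ASNS (chr7:97872359-97872658, minus strand) had the largest difference between the groups by the probe sets used, and a CARE that begins at -68 from the start. HERPUD1 (chr16:56931892-56932191, plus strand) had both a CARE, in reverse, and an ERSE-II and lay far above the other arrays on siControl replicate 3. HSPA5 (chr9:125241294-125241593, minus strand) is the standard reporter gene of ER stress. CRELD2 (chr22:49918384-49918683, plus strand), with its ERSE in reverse, lay farthest below the other arrays there.

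ASNS: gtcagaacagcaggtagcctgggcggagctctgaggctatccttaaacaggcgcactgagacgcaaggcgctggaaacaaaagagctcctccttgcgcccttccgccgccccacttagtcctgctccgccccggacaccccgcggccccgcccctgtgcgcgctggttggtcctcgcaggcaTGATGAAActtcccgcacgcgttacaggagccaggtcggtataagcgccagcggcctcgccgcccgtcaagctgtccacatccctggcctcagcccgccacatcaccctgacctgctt
HERPUD1: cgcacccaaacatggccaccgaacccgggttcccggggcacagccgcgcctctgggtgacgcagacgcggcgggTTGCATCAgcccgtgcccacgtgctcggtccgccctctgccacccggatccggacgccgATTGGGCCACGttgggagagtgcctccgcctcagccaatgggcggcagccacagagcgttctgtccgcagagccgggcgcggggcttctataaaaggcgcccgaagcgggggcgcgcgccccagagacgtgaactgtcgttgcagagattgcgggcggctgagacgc
HSPA5: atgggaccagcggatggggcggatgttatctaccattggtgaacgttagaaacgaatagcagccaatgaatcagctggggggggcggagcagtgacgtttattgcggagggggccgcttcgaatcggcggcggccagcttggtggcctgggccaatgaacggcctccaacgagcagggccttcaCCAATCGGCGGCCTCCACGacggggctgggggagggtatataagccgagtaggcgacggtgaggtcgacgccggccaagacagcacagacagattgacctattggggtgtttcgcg
CRELD2: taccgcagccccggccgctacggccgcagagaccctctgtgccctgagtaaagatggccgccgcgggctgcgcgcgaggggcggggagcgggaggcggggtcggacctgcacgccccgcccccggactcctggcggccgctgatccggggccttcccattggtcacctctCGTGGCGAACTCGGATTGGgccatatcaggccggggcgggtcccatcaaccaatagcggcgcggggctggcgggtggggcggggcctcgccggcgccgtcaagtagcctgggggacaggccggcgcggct

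With all 6 arrays, EDEM1 and PSAT1 fell in siTIG1 cells and no member rose. These 2 of 39 members (5.13%) are close to the background, since 4.17% of all 19775 genes fell and 3.15% rose at a limma adjusted p under 0.05 (7.32% in all). At an unadjusted p under 0.05 by the same fit, 0 of 39 members rose and 8 fell, against 2086 and 2252 of all 19775 genes. Trended robust eBayes also gave 0 rises and 2 falls at the adjusted threshold. In bulk RNA of a culture, fewer cells with a transcript and less of it per cell cannot be told apart. Negative differences were more frequent than positive ones, 32 against 7, with a median of -0.24 over the members and 0.02 over all genes. The median was -0.33 for ATF4-type genes, 19 of 21 of them negative, and -0.15 for XBP1/ATF6-type genes, 13 of 18 negative. In 16 members (41%) all 3 siTIG1 arrays lay below all 3 siControl arrays, against 15.4% of all genes, and in none did they lie above, against 16.6%. Of these 16 members 11 were ATF4-type genes. Only 3 of the 39 members lay below the median gene level of 8.74, against 9887 of all 19775 genes. The shares here and below thus set mostly bright genes against a background with many dim ones.

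**Figure D1:**
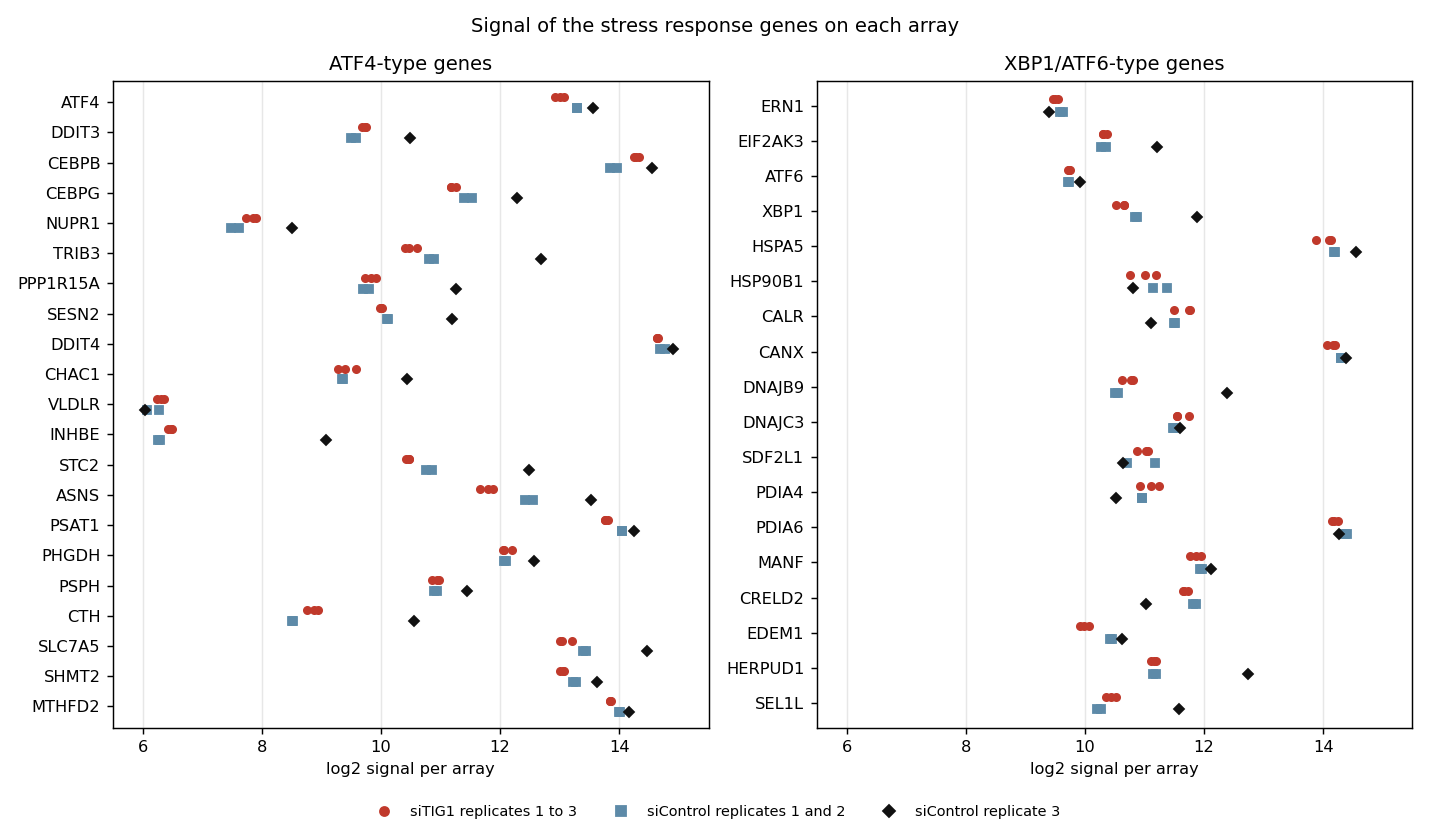
Signal of each member on each array, as log2 signal on the horizontal axis and genes down the page by role, with circles for siTIG1 replicates, squares for siControl replicates 1 and 2 and diamonds for siControl replicate 3. The diamond is the highest of the 6 arrays for 20 of 21 ATF4-type genes and for 10 of 18 XBP1/ATF6-type genes, and levels of different genes are not comparable because they come from different probe sets.

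siControl replicate 3 was above all 5 other arrays for 30 of the 39 members (76.9%), against 31.5% of all genes, and below all 5 for 6 members, against 28.4%. It lay at least 2-fold above the mean of siControl replicates 1 and 2 for 13 members (33.3%), against 1.51% of all genes, and at least 2-fold below it for none, against 2.01%. This is a description of 1 array. siControl replicates 1 and 2 differed from each other by a median size of 0.05 over the members and by at most 0.48, for SDF2L1.

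No test was made between the classes on this array. The median deviation of siControl replicate 3 was 0.94 for the ATF4-type genes, 20 of 21 of which were higher and 9 at least 2-fold higher (42.9%). It was 0.14 for the XBP1/ATF6-type genes, 11 of which were higher and 7 lower, with 4 at least 2-fold higher (22.2%). It was 0.02 over all genes, 54.4% of which were higher and 1.51% at least 2-fold higher. The share of genes that were higher was 95.2% for the ATF4 type and 61.1% for the XBP1/ATF6 type. The latter was near the background in direction but not in size. The median size of the deviation, sign aside, was 0.38 for the XBP1/ATF6-type genes, against 0.15 over all genes. Without the sensors the XBP1/ATF6-type median was 0.11 over 15 genes. When all probe sets of a gene were averaged, 7 ATF4-type genes and 1 XBP1/ATF6-type gene deviated at least 2-fold, and DNAJB9 was past 2-fold on each of its 3 probe sets, whereas XBP1, HERPUD1 and SEL1L were so on 1 probe set each.

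**Figure D2:**
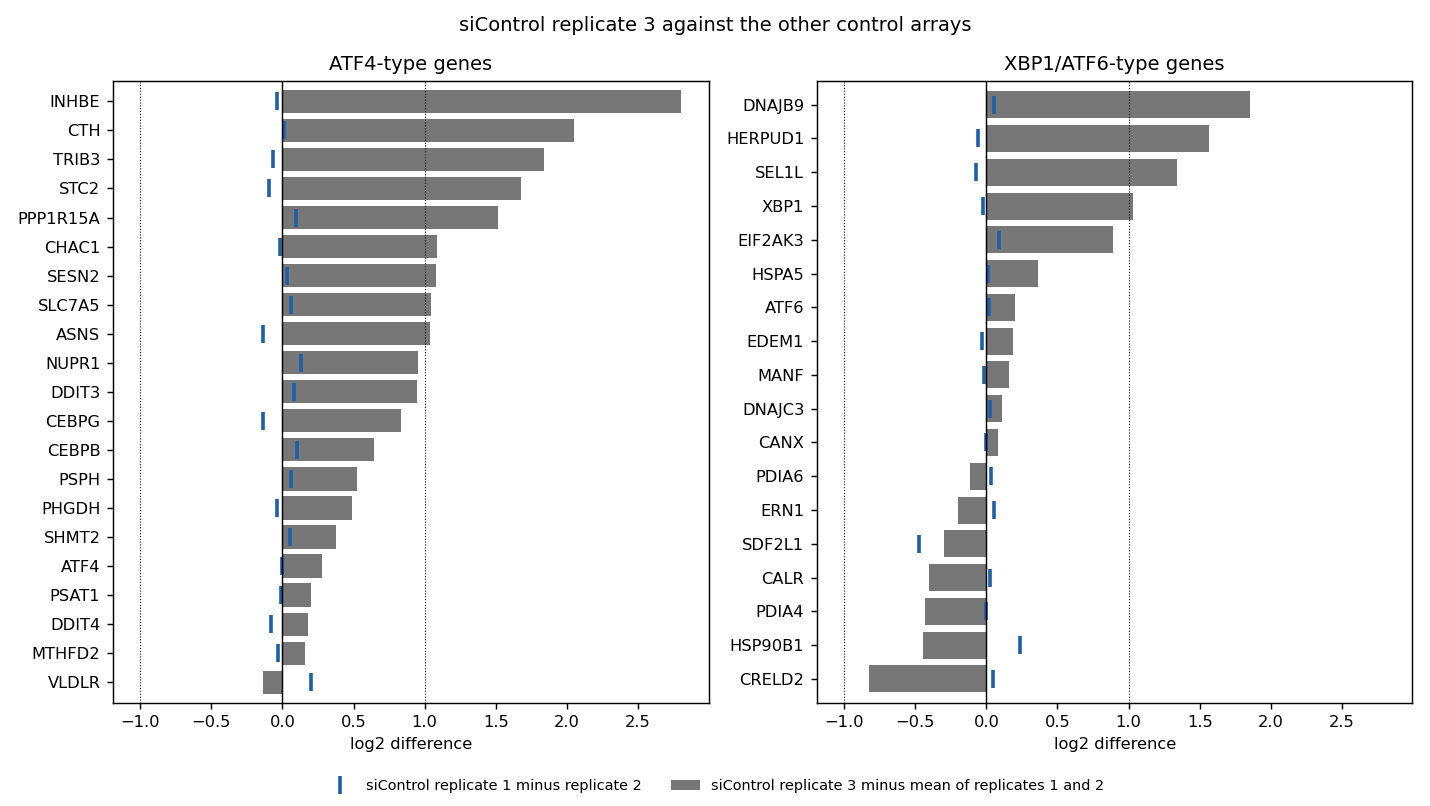
Log2 difference of siControl replicate 3 from the mean of siControl replicates 1 and 2 (grey bars) beside the difference between replicates 1 and 2 (blue ticks), with genes sorted by the bar within each class and dotted lines at 2-fold. The bars reach 2.80 for INHBE and 1.85 for DNAJB9 and are below 0 for VLDLR and 7 XBP1/ATF6-type genes, CRELD2 lowest at -0.82.

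Without siControl replicate 3, 13 members fell and 7 rose in siTIG1 cells. That is 33.3% and 17.9% of the 39, against 14.9% and 12.3% of all genes in the same fit of 5 arrays (27.2% in all). The medians then lay near 0, at -0.08 for ATF4-type genes, -0.05 for XBP1/ATF6-type genes and 0.02 for all genes. Of the ATF4-type genes 9 fell, 5 rose and 7 did not pass, and of the XBP1/ATF6-type genes 4 fell, 2 rose and 12 did not pass. Both fits share all arrays but 1, so the second is no independent check of the first. Where both results are given for a member below, that with 6 arrays mostly comes before that with 5. Members with no 5-array result below did not pass in that fit by the probe set used.

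**Figure D3:**
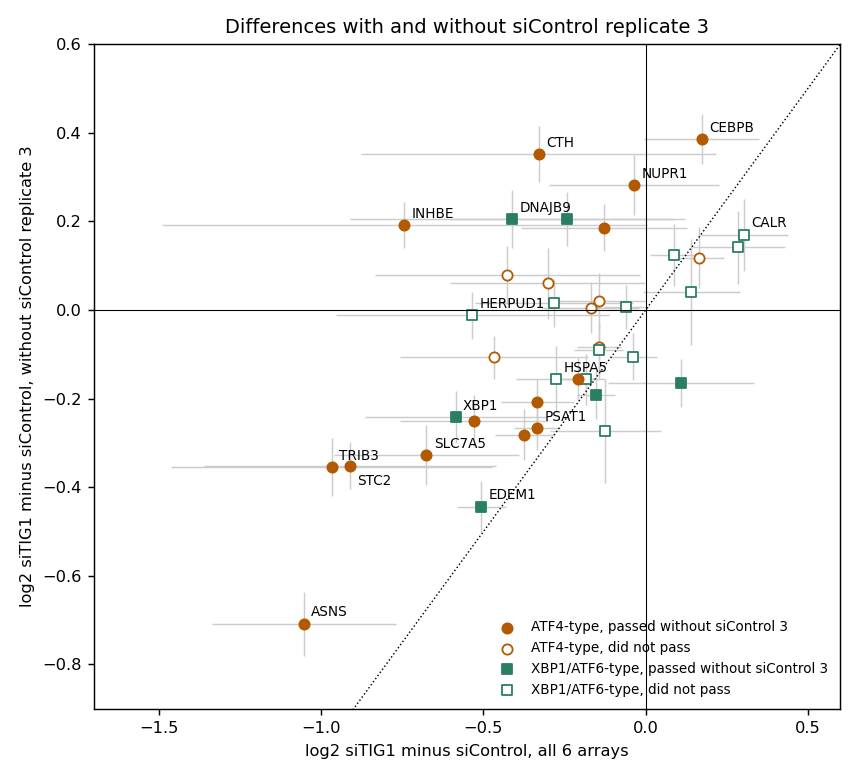
Log2 difference of each member, siTIG1 minus siControl, with all 6 arrays (horizontal axis) and without siControl replicate 3 (vertical axis), with circles for ATF4-type and squares for XBP1/ATF6-type genes, filled where the limma adjusted p was under 0.05 without that array, and bars for standard errors. Most points lie above the dotted line of equality, and EDEM1 and PSAT1 lie close to it, at -0.51 and -0.44 for EDEM1 and -0.33 and -0.27 for PSAT1.

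Among the ATF4-type transcription factors the directions were mixed. ATF4 read 13.07, 13.01 and 12.93 on the siTIG1 arrays and 13.28, 13.28 and 13.56 on the siControl arrays. The groups did not overlap, and the difference was -0.37 ± 0.09 (SE, limma adjusted p = 0.066), or -0.28 ± 0.06 (SE, limma adjusted p = 0.0054) without siControl replicate 3, where it fell. CEBPG, a partner of ATF4 on the CARE, read 11.25, 11.18 and 11.18 on the siTIG1 arrays and 11.39, 11.52 and 12.29 on the siControl arrays. It differed by -0.53 ± 0.23 (SE, limma adjusted p = 0.25) and fell by 0.25 without siControl replicate 3 (limma adjusted p = 0.012), where its second probe set differed by -0.01.

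The other 3 factors rose when siControl replicate 3 was left out. CEBPB, the C/EBP factor of inflammation and stress, read 14.28, 14.33 and 14.26 on the siTIG1 arrays and 13.96, 13.85 and 14.55 on the siControl arrays. The siTIG1 arrays thus lay between the controls, and the difference was 0.17 ± 0.18 (SE, limma adjusted p = 0.64), or 0.39 ± 0.06 (SE, limma adjusted p = 0.00083) without replicate 3. DDIT3, which encodes the pro-apoptotic factor CHOP, read 9.74, 9.69 and 9.74 on the siTIG1 arrays and 9.58, 9.49 and 10.48 on the siControl arrays. Its difference was -0.13 with 6 arrays (limma adjusted p = 0.82) and 0.19 with 5 (limma adjusted p = 0.028). NUPR1, a small stress-induced chromatin protein, read 7.91, 7.85 and 7.73 on the siTIG1 arrays and 7.62, 7.49 and 8.50 on the siControl arrays, a low signal. It differed by -0.04 with 6 arrays (limma adjusted p = 0.95) and by 0.28 with 5 (limma adjusted p = 0.013). All 5 factors were highest on siControl replicate 3, ATF4 itself by the least, 0.28 above the mean of the other controls, and NUPR1 by the most, 0.95.

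Feedback regulators were among the genes with the largest deviations on siControl replicate 3. TRIB3, a pseudokinase that binds ATF4 and CHOP, read 10.60, 10.41 and 10.47 on the siTIG1 arrays and 10.81, 10.88 and 12.69 on the siControl arrays. The highest siTIG1 array lay below the lowest control, and the difference was -0.97 ± 0.49 (SE, limma adjusted p = 0.32), or -0.35 ± 0.07 (SE, limma adjusted p = 0.0035) without replicate 3. PPP1R15A, the inducible GADD34 subunit that directs dephosphorylation of eIF2, read 9.92, 9.84 and 9.74 on the siTIG1 arrays and 9.80, 9.71 and 11.27 on the siControl arrays. Its groups overlapped, and it passed neither with 6 arrays (-0.43, limma adjusted p = 0.61) nor with 5 (0.08, limma adjusted p = 0.44). Against the other controls siControl replicate 3 was 3.58-fold higher for TRIB3 and 2.86-fold higher for PPP1R15A, and each gene's second probe set had the same sign there. Without replicate 3 the second TRIB3 probe set differed by only -0.08 (limma adjusted p = 0.42 over all probe sets), so the TRIB3 fall rests on 1 probe set.

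None of the 4 further stress targets passed in either fit. SESN2, a sestrin that restrains mTORC1, and CHAC1, which cleaves glutathione, were 2.11-fold and 2.12-fold higher on siControl replicate 3 than the mean of the other controls. Their differences between the groups were -0.47 ± 0.29 and -0.30 ± 0.30 (SE, limma adjusted p = 0.42 and 0.63), and -0.11 and 0.06 without that array. DDIT4, the mTORC1 inhibitor REDD1, read 14.64 to 14.66 on the siTIG1 arrays and 14.69 to 14.91 on the siControl arrays, with a difference of -0.14 ± 0.07 (SE, limma adjusted p = 0.29). VLDLR, a lipoprotein receptor, read 6.24 to 6.35 on the siTIG1 arrays and 6.04 to 6.28 on the siControl arrays, near the low end of the table, and was the only ATF4-type gene below the other controls on siControl replicate 3 (-0.14). It differed by 0.16 ± 0.08 (SE, limma adjusted p = 0.29) with 6 arrays and by 0.12 without siControl replicate 3.

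The secreted ATF4 targets INHBE and STC2 differed on siControl replicate 3 by 2.80 and 1.68. INHBE, an activin chain, read 6.43, 6.50 and 6.47 on the siTIG1 arrays and 6.25, 6.29 and 9.08 on the siControl arrays. The signal was low on 5 arrays and 6.99-fold above the other controls on siControl replicate 3, and the low signals are not shown to exceed background. The difference was -0.74 ± 0.75 (SE, limma adjusted p = 0.63) with 6 arrays and 0.19 ± 0.05 (SE, limma adjusted p = 0.021) with 5, a rise between low signals. STC2, the glycoprotein stanniocalcin 2, read 10.47, 10.43 and 10.47 on the siTIG1 arrays and 10.76, 10.85 and 12.49 on the siControl arrays. It lay below every control on each siTIG1 array, by -0.91 ± 0.45 (SE, limma adjusted p = 0.31), and fell by 0.35 without replicate 3 (limma adjusted p = 0.0011), 1.28-fold.

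Enzymes and carriers of amino acid supply held the largest difference between the groups by the probe sets used. ASNS, asparagine synthetase, read 11.87, 11.67 and 11.79 on the siTIG1 arrays and 12.42, 12.56 and 13.52 on the siControl arrays. It was 2.07-fold lower in siTIG1 cells, at -1.05 ± 0.28 (SE, limma adjusted p = 0.087, not past the threshold), and it fell by 0.71 without siControl replicate 3 (SE 0.07, limma adjusted p = 0.00011), 1.63-fold. Its second probe set, at 5.04 to 5.27 on all 6 arrays, carried little signal. Of all members ASNS had the lowest difference in both fits by the probe sets used. With 6 arrays other probe sets of STC2 and ATF6 were lower, at -1.20 and -1.11. With 5 arrays another HSPA5 probe set was at -0.710, beside ASNS at -0.708. SLC7A5, the large neutral amino acid transporter LAT1, read 13.21, 13.01 and 13.04 on the siTIG1 arrays and 13.45, 13.39 and 14.46 on the siControl arrays. Its groups did not overlap either, at -0.68 ± 0.29 (SE, limma adjusted p = 0.24), and it fell by 0.33 without replicate 3 (limma adjusted p = 0.0061).

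The serine synthesis enzymes did not move together. PSAT1, phosphoserine aminotransferase, read 13.76, 13.77 and 13.81 on the siTIG1 arrays and 14.04, 14.05 and 14.25 on the siControl arrays. It fell in siTIG1 cells by 0.33 ± 0.07 (SE, limma adjusted p = 0.042), 1.26-fold, and by 0.27 without replicate 3 (limma adjusted p = 0.0035), with both of its probe sets lower. The call was lost with any other single array left out (limma adjusted p of 0.079 to 0.17) and under quantile normalization (0.052). PHGDH, the first enzyme of the pathway, and PSPH, the last, differed by -0.14 ± 0.14 and -0.17 ± 0.15 (SE, limma adjusted p = 0.63 and 0.58), and by 0.02 and 0.01 without siControl replicate 3, on which they lay 0.49 and 0.52 above the other controls. Another PSPH probe set was lower by -0.48 without that array (limma adjusted p = 0.0040 over all probe sets).

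CTH, cystathionine gamma-lyase, which makes cysteine, had the second largest deviation on siControl replicate 3 by the probe sets used. It read 8.94, 8.76 and 8.88 on the siTIG1 arrays and 8.52, 8.50 and 10.56 on the siControl arrays. The siTIG1 arrays lay above 2 controls and below the third, so the difference was -0.33 ± 0.55 (SE, limma adjusted p = 0.78) with 6 arrays and 0.35 ± 0.06 (SE, limma adjusted p = 0.0027) with 5, where it rose 1.28-fold. Both CTH probe sets had these signs.

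The mitochondrial one-carbon enzymes passed only without siControl replicate 3. SHMT2, serine hydroxymethyltransferase 2, read 13.05, 13.07 and 13.00 on the siTIG1 arrays and 13.27, 13.22 and 13.63 on the siControl arrays, with a difference of -0.33 ± 0.11 (SE, limma adjusted p = 0.15). MTHFD2, methylenetetrahydrofolate dehydrogenase 2, read 13.86, 13.84 and 13.85 on the siTIG1 arrays and 13.99, 14.02 and 14.16 on the siControl arrays, with a difference of -0.21 ± 0.06 (SE, limma adjusted p = 0.11). Neither passed with 6 arrays although the groups did not overlap for either gene. Without replicate 3, SHMT2 fell by 0.21 (limma adjusted p = 0.016) and MTHFD2 by 0.15 (limma adjusted p = 0.044).

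**Figure D4:**
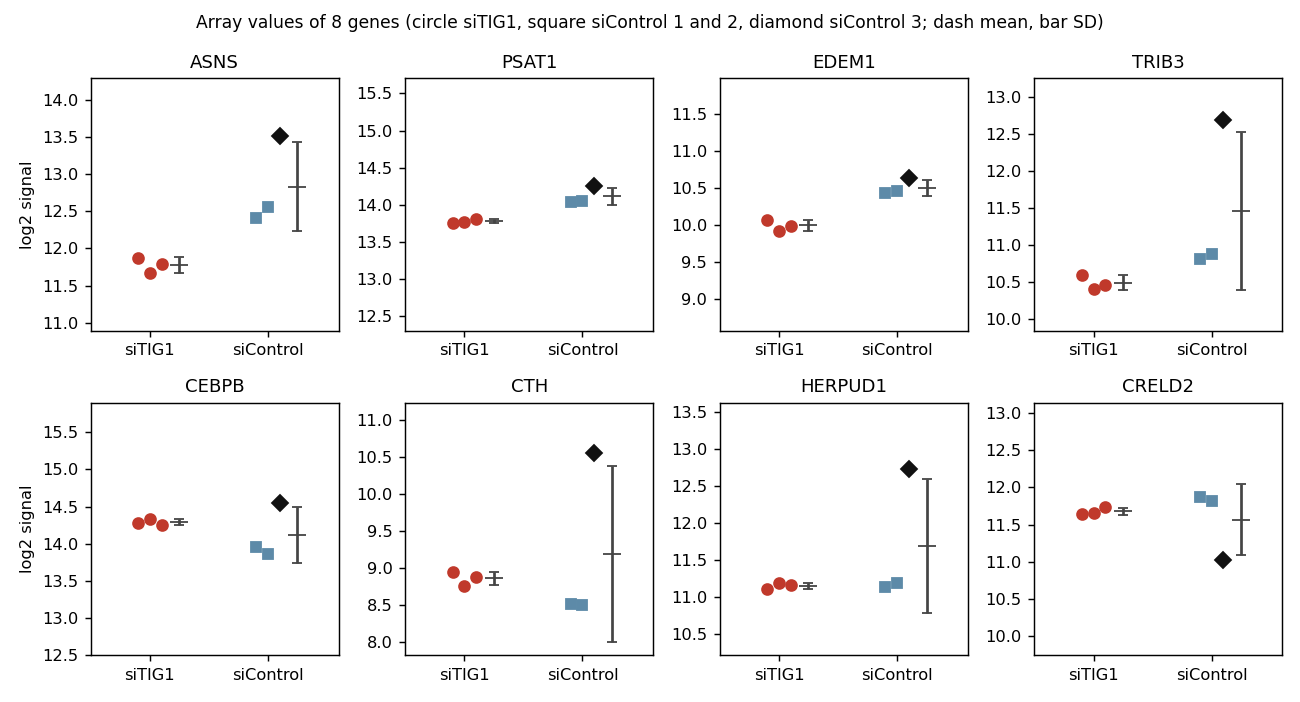
Log2 signal of 8 members on each array, siTIG1 (circles) left of siControl (squares for replicates 1 and 2, diamond for replicate 3), with the mean and SD of each group of 3 beside the points and the same span on every vertical axis. ASNS, PSAT1, EDEM1 and TRIB3 are lower on all siTIG1 arrays than on any control, CEBPB and CTH lie between the controls, and CRELD2 is lowest on siControl replicate 3, at 11.02.

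None of the 3 ER stress sensors passed in either fit by the probe set with the highest mean, but for ATF6 and ERN1 other probe sets read differently. EIF2AK3 (PERK) read 10.30, 10.31 and 10.37 on the siTIG1 arrays and 10.36, 10.26 and 11.20 on the siControl arrays, so that it lay between 10.26 and 10.37 on 5 arrays and 1.86-fold above the other controls on siControl replicate 3. Its difference was -0.28 ± 0.24 (SE, limma adjusted p = 0.57). ATF6 differed by -0.06 ± 0.07 and ERN1 (IRE1) by -0.04 ± 0.07 (SE, limma adjusted p = 0.68 and 0.81), and on siControl replicate 3 they lay at 0.20 and -0.20 from the other controls. These values do not hold across their probe sets. A second ATF6 probe set read 9.28, 9.04 and 9.23 on the siTIG1 arrays and 9.80, 9.98 and 11.09 on the siControl arrays. Another read 7.55, 7.503 and 7.58 on the siTIG1 arrays and 8.20, 8.25 and 8.97 on the siControl arrays. Both lay below every control on each siTIG1 array, and without siControl replicate 3 they fell by 0.71 and 0.68 (limma adjusted p = 0.00045 and 6.9e-05 over all probe sets). With all 6 arrays they differed by -1.11 and -0.93 (limma adjusted p = 0.12 and 0.0504). The 3 ATF6 probe sets other than the one used lay 0.55 to 1.20 above the other controls on siControl replicate 3. One ERN1 probe set read 8.68, 8.745 and 8.995 on the siTIG1 arrays and 8.97, 8.92 and 11.37 on the siControl arrays, 2.42 above the other controls on replicate 3, while the remaining ERN1 probe set was at -0.05. Averaged over probe sets, the difference was -0.60 for ATF6 and -0.33 for ERN1 (limma adjusted p = 0.12 and 0.42). The second EIF2AK3 probe set, of low signal, deviated by 0.13 on replicate 3.

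XBP1, whose own promoter window holds an ERSE, read 10.66, 10.52 and 10.65 on the siTIG1 arrays and 10.84, 10.87 and 11.88 on the siControl arrays. The groups did not overlap, and the difference was -0.59 ± 0.28 (SE, limma adjusted p = 0.29), or -0.24 ± 0.06 (SE, limma adjusted p = 0.013) without siControl replicate 3, where it fell. The second XBP1 probe set, at 6.98 to 7.16 on all arrays, did not show this.

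The ER chaperones and folding enzymes differed little between the groups. HSPA5, the chaperone BiP, read 13.89, 14.09 and 14.14 on the siTIG1 arrays and 14.20, 14.19 and 14.55 on the siControl arrays, with a difference of -0.28 ± 0.12 (SE, limma adjusted p = 0.26), or -0.16 (limma adjusted p = 0.17) without replicate 3. Its second, dimmer probe set was lower by -0.82 (limma adjusted p = 0.01 over all probe sets), so that HSPA5 was called lower when its probe sets were averaged (-0.55, limma adjusted p = 0.036). Without siControl replicate 3 that dimmer probe set was at -0.71 (limma adjusted p = 0.00015 over all probe sets). HSP90B1 (GRP94), measured here only by probe sets that can bind several transcripts, differed by -0.12 ± 0.17 (SE, limma adjusted p = 0.73), and its second probe set had the opposite sign (0.11). The lectin chaperones CALR (calreticulin) and CANX (calnexin) differed by 0.30 ± 0.14 and -0.18 ± 0.06 (SE, limma adjusted p = 0.26 and 0.13), and a dimmer CANX probe set fell by 0.33 (limma adjusted p = 0.045 over all probe sets). It fell by 0.32 without siControl replicate 3 (limma adjusted p = 0.012 over all probe sets), and no other CANX probe set passed in either fit. Of the disulphide isomerases PDIA4 differed by 0.29 ± 0.14 (SE, limma adjusted p = 0.31). PDIA6 read 14.14, 14.18 and 14.24 on the siTIG1 arrays and 14.40, 14.37 and 14.27 on the siControl arrays, at -0.15 ± 0.06 (SE, limma adjusted p = 0.20), and fell by 0.19 without replicate 3 (limma adjusted p = 0.026). The other 3 PDIA6 probe sets had the opposite sign, so that fall rests on 1 probe set.

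On siControl replicate 3 the chaperones, disulphide isomerases and co-chaperones lay on both sides of the other controls. HSP90B1, PDIA4, CALR and PDIA6 lay below them, at -0.45, -0.43, -0.40 and -0.12, while CANX was at 0.08 and HSPA5 at 0.36. Of the co-chaperones SDF2L1 was at -0.30, DNAJC3 at 0.11 and DNAJB9 at 1.85. The 7 genes with an ERSE in their window ranged from -0.82 (CRELD2) to 1.03 (XBP1) on that array. The 9 XBP1/ATF6-type genes without any of the 4 motifs in their windows ranged from -0.43 (PDIA4) to 1.85 (DNAJB9), so the ranges overlapped. Between these lay ERN1 at -0.20, DNAJC3 at 0.11, MANF at 0.16, EDEM1 at 0.19, ATF6 at 0.20, EIF2AK3 at 0.89 and SEL1L at 1.34.

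The co-chaperones of BiP varied. DNAJB9 (ERdj4), an IRE1-XBP1 target, read 10.62, 10.77 and 10.80 on the siTIG1 arrays and 10.55, 10.50 and 12.38 on the siControl arrays. The last array was 3.61-fold above the other controls, all 3 probe sets with the same sign, and the siTIG1 arrays lay just above replicates 1 and 2. The difference was -0.41 ± 0.50 (SE, limma adjusted p = 0.70) with 6 arrays and 0.21 ± 0.07 (SE, limma adjusted p = 0.045) with 5, where it rose. DNAJC3, the PERK inhibitor p58IPK, and SDF2L1 differed by 0.09 ± 0.08 and 0.14 ± 0.15 (SE, limma adjusted p = 0.57 and 0.66).

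Of the 2 secreted ER proteins, MANF differed by -0.14 ± 0.07 (SE, limma adjusted p = 0.33). CRELD2 read 11.64, 11.66 and 11.73 on the siTIG1 arrays and 11.87, 11.82 and 11.02 on the siControl arrays, the reverse of most members on replicate 3. The difference was 0.11 ± 0.23 (SE, limma adjusted p = 0.83) with 6 arrays, and CRELD2 fell by 0.17 without that array (limma adjusted p = 0.049), close to the threshold.

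Among the factors of ER-associated degradation, EDEM1 is the lectin that delivers misfolded glycoproteins for disposal. Of all members it had the smallest p with 6 arrays by the probe sets used. It read 10.07, 9.92 and 9.99 on the siTIG1 arrays and 10.42, 10.45 and 10.63 on the siControl arrays. It fell in siTIG1 cells by 0.51 ± 0.07 (SE, limma adjusted p = 0.015), 1.42-fold, and by 0.44 ± 0.06 (SE, limma adjusted p = 0.00047) without replicate 3. EDEM1 had 1 probe set, and its call was lost without siControl replicate 2 (limma adjusted p = 0.053) or any 1 siTIG1 array (0.054 to 0.087).

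HERPUD1 and SEL1L showed another pattern. HERPUD1, a membrane protein of the degradation complex, read 11.11, 11.19 and 11.17 on the siTIG1 arrays and 11.14, 11.20 and 12.73 on the siControl arrays. Without siControl replicate 3 its values ran from 11.11 to 11.20, with a difference of -0.01 ± 0.05 (SE, limma adjusted p = 0.90), and siControl replicate 3 lay 2.97-fold above the other controls, so with 6 arrays it differed by -0.53 ± 0.42 (SE, limma adjusted p = 0.53). SEL1L, the adaptor of the SYVN1 ligase, read 10.36, 10.44 and 10.52 on the siTIG1 arrays and 10.20, 10.27 and 11.57 on the siControl arrays. It differed by -0.24 ± 0.36 (SE, limma adjusted p = 0.76) and rose by 0.21 without replicate 3 (limma adjusted p = 0.034). The second HERPUD1 probe set and the other 3 of SEL1L deviated on siControl replicate 3 by -0.18 to 0.26 only.

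**Figure D5:**
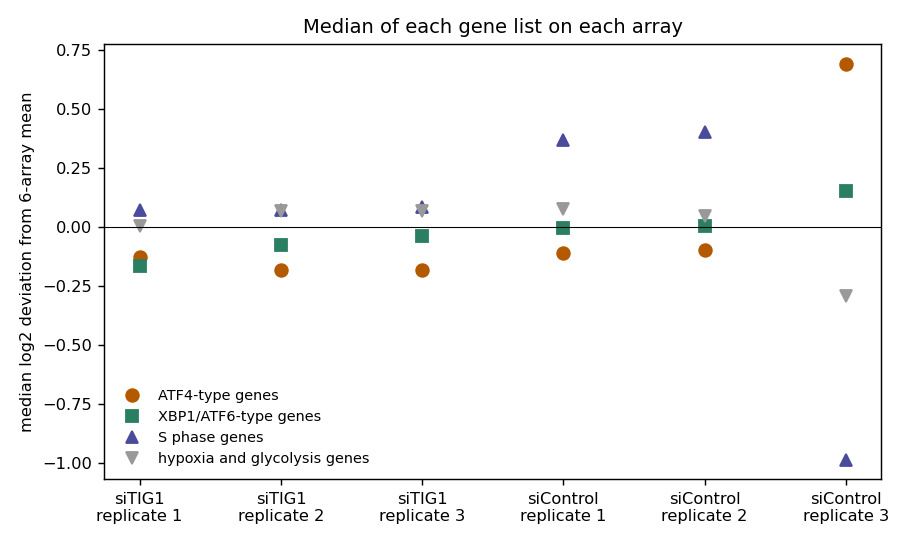
Median log2 deviation from each gene's mean over the 6 arrays, for the ATF4-type genes (circles), the XBP1/ATF6-type genes (squares), S phase genes (upward triangles) and hypoxia and glycolysis genes (downward triangles), on each array. On siControl replicate 3 the ATF4-type median is 0.69, the XBP1/ATF6-type median 0.16, the hypoxia and glycolysis median -0.29 and the S phase median -0.98, and the ATF4-type median is between -0.18 and -0.10 on the other 5 arrays.

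Other genes of the same pathways were counted from lists of their own. Of 32 further measured genes of the integrated stress response 4 fell with 6 arrays by limma (12.5%, against 4.17% of all genes). In the same fit 0 rose (against 3.15%) and 28 did not pass, with a median of -0.30. At an unadjusted p under 0.05 in this fit, 2 were higher and 9 lower, against 2086 and 2252 of all 19775 genes. All 4 that fell encode membrane carriers or a nuclear exporter. SLC7A11, the cystine and glutamate exchanger, fell by 1.99 ± 0.25 (SE, limma adjusted p = 0.0097), the neutral amino acid carriers SLC1A4 and SLC1A5 fell by 0.66 ± 0.07 and 0.49 ± 0.09 (SE, limma adjusted p = 0.0067 and 0.032), and XPOT, the tRNA exporter, fell by 0.50 ± 0.11 (SE, limma adjusted p = 0.045). On siControl replicate 3, 30 of the 32 were higher than in the other controls (93.8%, against 54.4% of all genes), with a median of 0.72, and 9 were at least 2-fold higher (28.1%, against 1.51%). The largest deviations were those of ALDH1L2, a mitochondrial folate enzyme (2.75), KLHL24 (2.04) and the angiogenic factor VEGFA (1.996). Without that array 10 fell and 9 rose (31.2% and 28.1%, against 14.9% and 12.3% of all genes). The rises then included KLHL24, at 1.30, and ATF3, an immediate stress factor, at 0.78 ± 0.06 (SE, limma adjusted p = 2.4e-05). ATF3 was chosen after its value was seen. With all 6 arrays ATF3 differed by 0.22 ± 0.45 (SE, limma adjusted p = 0.83) and its groups overlapped. It read 9.92 to 10.06 on the siTIG1 arrays, and 9.19, 9.26 and 10.90 on the siControl arrays.

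Of 12 measured genes of the eIF2 machinery, which holds its kinases, subunits, exchange factor and the phosphatase subunit PPP1R15B, EIF2B2 fell by 0.30 ± 0.05 (SE, limma adjusted p = 0.020) and 11 did not pass. That is 1 of 12 genes (8.33%) with 6 arrays, against 4.17% of all genes, which for so short a list is near the background. Without siControl replicate 3, 4 of the 12 fell and 1 rose (33.3% and 8.33%, against 14.9% and 12.3% of all genes). EIF2B2 encodes the beta subunit of the exchange factor. On siControl replicate 3 this list had a median of 0.02, with EIF2B3 at -0.70, EIF2AK2, the kinase PKR, at -0.35 and PPP1R15B at 0.34 as the largest deviations. None reached 2-fold.

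Of 33 further measured genes of ER folding, degradation and traffic 2 rose, 2 fell and 29 did not pass with 6 arrays, and the median was -0.02. That is 6.06% in each direction, against 3.15% and 4.17% of all genes, which is near the background in this fit. Without siControl replicate 3, 9 rose and 5 fell (27.3% and 15.2%, against 12.3% and 14.9% of all genes). DERL2, a channel component of ER-associated degradation, and ERO1A, the oxidase that recharges disulphide isomerases, rose by 0.31 ± 0.06 and 0.39 ± 0.09 (SE, limma adjusted p = 0.0296 and 0.0475). The prolyl isomerase FKBP11 and the disulphide reductase DNAJC10 fell by 0.45 ± 0.06 and 0.38 ± 0.06 (SE, limma adjusted p = 0.013 and 0.018). On siControl replicate 3 the list's median was 0.17, with CREB3L2, an ER-bound transcription factor (1.28), the COPII coat gene SEC24D (1.28) and SELENOS (0.84) highest. On that array the medians were 0.72 for the further stress response genes and 0.17 for the further ER genes. Those of the members' classes were 0.94 and 0.14. The same 1 array gave all of these, and the lists were chosen with earlier results known, so the shared order is no independent check.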

How the data were processed

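For each array the authors deposited log2 values of 54675 probe sets of the HG-U133 Plus platform. The log base is not stated and was taken as 2 from the range of the deposited values, 4.28 to 15.59. Per the submitters' processing notes, MAS5 and RMA were used, with no role or version. The deposited values were already normalized between arrays (sorted values differed by at most 0.093 between arrays) and were used as deposited; a general rise or fall of the transcriptome is therefore outside what they can show.

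Of these probe sets 41091 carried 1 gene symbol in the platform annotation. Symbols were updated by gene number against RefSeq (GRCh38.p14). Each of 19775 genes was represented by the probe set with the highest mean over the 6 arrays. siTIG1 was compared with siControl by limma 3.58.1 in R 4.3.3 (lmFit, eBayes, 2-sided, no block), with Benjamini-Hochberg adjustment over all 19775 genes and a threshold of 0.05. The same fit was run on the 5 arrays left without siControl replicate 3. The fit was tested on simulated data. The deviation of siControl replicate 3 from the mean of replicates 1 and 2 sets 1 array against 2, so it carries no test. The number of arrays limits the precision, and low signals carry no detection call.

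Alternatives were quantile normalization, median centring, other choices of probe set, a filter on dim genes, trended robust eBayes, the replicate number as a block, and leaving out each array. The members and the lists of other pathway genes were chosen with earlier results of these data known. Every member is named, and array values are given for members past the threshold with 6 or with 5 arrays and for the 5 of each class farthest from the other controls on siControl replicate 3. Of each other list, up to 4 genes past the threshold and up to 3 with the largest such deviations are named. The labels do not say whether the replicate numbers pair the arrays. Deviations from the group means correlated at -0.08, 0.02 and -0.04 for the same numbers. Because siControl replicate 3 stood far from the other controls, it weighs on every control deviation, and this check could not exclude a pairing. Promoter sequences are RefSeq windows of GRCh38.p14, from 250 bases before to 50 after a gene's start. Protein sequences were not used here.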

Additional observations from a re-analysis of the deposited data

How the results depend on the processing

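With siControl replicate 3 left out, 13 members changed sign, and no other single setting changed as many. Over leaving out each array in turn, the genes called higher ranged from 102 to 2423 and lower from 120 to 2952, the members called higher from 0 to 7 and lower from 0 to 13. For ATF4-type genes these were 0 to 5 and 0 to 9, and for XBP1/ATF6-type genes 0 to 2 and 0 to 4, each highest without siControl replicate 3. The median difference ranged from -0.34 to -0.08 over all members, -0.42 to -0.08 for the ATF4 type and -0.19 to -0.051 for the XBP1/ATF6 type. Members that changed sign in any of these ranged from -0.31 to 0.19 (DDIT3), -0.23 to 0.28 (NUPR1), -0.70 to 0.078 (PPP1R15A), -0.49 to 0.060 (CHAC1), -1.22 to 0.19 (INHBE), -0.23 to 0.021 (PHGDH), -0.27 to 0.0051 (PSPH), -0.675 to 0.35 (CTH), -0.11 to 0.0089 (ERN1), -0.45 to 0.016 (EIF2AK3), -0.10 to 0.0063 (ATF6), -0.27 to 0.0094 (HSP90B1), -0.735 to 0.21 (DNAJB9), -0.17 to 0.26 (CRELD2) and -0.48 to 0.21 (SEL1L). With the mean of all probe sets, 4 members were lower (2 of each class), 8 passed 2-fold on siControl replicate 3 (1 of the XBP1/ATF6 type), the medians there were 0.88 (ATF4 type) and 0.18 (XBP1/ATF6 type), and PDIA6 and SEL1L changed sign, to 0.068 and 0.056. Under quantile normalization 1 member was lower, 0 of the ATF4 type, with medians on that array of 0.50 (all) and 0.93 (ATF4 type). Among genes above the median level these were 0.44 and 0.89. With the replicate number as a block, a pairing that the labels do not give, 104 genes were higher and 134 lower. In that fit 0 members in either class were lower (limma adjusted p = 0.103 for PSAT1 and 0.072 for EDEM1). The cause was not tested.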
